A study of Xenopus laevis with 24 samples.

Results

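How far foregut tissue goes on developing when translation of the transcription factor Rfx6 is blocked was followed in rfx6 morphant explants of Xenopus laevis from Nieuwkoop and Faber stage 25 (NF25) to stage NF33. The comparison sets the 3 morphant libraries of NF33 against the 3 of NF25, which are 6 of the 24 libraries of the study. All 44478 listed genes were considered. Of these, 28313 (63.7%) had enough counts to be tested and 16165 did not. No untested gene averaged more than 0.804 CPM in either morphant group, and 8500 of them had 0 counts in all 6 libraries. CPM is the count of a gene relative to the total of its library, adjusted by a scaling factor per library.

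The tissue was foregut endoderm with its mesoderm, cut at NF15 from wild-type embryos (NXR_0031) and kept at 15 °C. NF25 was reached after 16 h, NF33 after another 16 h and NF38 after a further 12 h. Morphants had received 2.5 ng of a morpholino that blocks translation of rfx6 RNA, injected at the 2-cell stage. Controls had received 2.5 ng of an oligonucleotide with 5 mismatched bases and were kept in 0.1% DMSO, and they serve here as the normal course of the same step. Explants given 250 nM BMS493 from dissection on serve to choose genes in libraries that belong to neither group. Like controls, they received no rfx6 morpholino. The labels do not state whether morphants were kept in DMSO or whether explants in BMS493 carried the mismatch oligonucleotide. Each group had 3 libraries, each from a pool of 8 explants. Which parents the embryos came from is not stated. What the p-values measure is therefore the spread between pools of explants. A morpholino lowers the protein made from its target RNA and removes no gene, and how much Rfx6 protein was left was not measured in these files.

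Rfx6 belongs to the RFX family of winged-helix transcription factors. In mouse and human it is known from the early gut endoderm and from the hormone-producing cells of pancreas and intestine. In the frog embryo the stages studied here span the time at which the gut tube becomes regionalised and the buds of liver, pancreas and lung appear. Retinoic acid is a signal from the mesoderm that patterns this region, and BMS493 silences its receptors by acting on them as an inverse agonist.

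The files list genes by number and do not pair the numbers with symbols. No gene is therefore named, the tissue could not be checked by its markers, and rfx6 itself was not followed. Its RNA would not test the labels either, since a translation-blocking morpholino need not lower it. The frog is an allotetraploid whose duplicated genes can be close enough in sequence for reads to be divided between them, and 41 of the tested genes, in 15 sets, had the same counts as another gene in every library. The 6 morphant libraries held 19489502 to 31005048 counts. Their log2 CPM values correlated across genes with r between 0.986 and 0.989 within a stage and between 0.902 and 0.904 across stages. The first principal component of the 6 libraries held 84.7% of the variance and the second 4.61%. The batch given in the labels is the same as the stage, so in every step from NF25 to NF33 stage and batch cannot be told apart. Each comparison of morphants with controls at one stage lies within 1 batch tag.

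A large part of the transcriptome still changed in the morphants. With edgeR's quasi-likelihood test at an adjusted p under 0.05, 4940 genes (17.4% of those tested) rose at least 2-fold from NF25 to NF33 and 2999 (10.6%) fell at least 2-fold. Over the same step 5359 genes (18.9%) rose and 3772 (13.3%) fell in controls. In BMS493 explants 4978 (17.6%) rose and 3746 (13.2%) fell. With no limit on fold, 19385 genes were called in morphants, 10153 (35.9%) higher and 9232 (32.6%) lower at NF33, and the median change of all tested genes was 0.06 on the log2 scale. That split depends on scaling. With libraries scaled to their totals, 13191 were higher and 6339 lower, and the median change of all genes was 0.28.

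Among larger changes in morphants, rises were more frequent than falls. At 4-fold or more there were 2379 risers and 1004 fallers, at 8-fold 1277 and 398, at 16-fold 732 and 175, and at 32-fold 413 and 81. Controls had more genes in each of these classes, with 749 risers and 176 fallers at 32-fold or more. The ratio of risers to fallers in morphants went from 1.65 at 2-fold to 5.1 at 32-fold. In controls it went from 1.42 to 4.26. Of the 4940 morphant risers, 2980 averaged under 1 CPM at NF25. Genes with few counts at NF25 passed the count filter through a group in which they were higher, which can add large rises. With no filter on low counts, 2-fold risers and fallers numbered 5169 and 3231. How the ratio at larger folds depends on the filter was not tested. On log2(TPM + 1), a scale that shrinks changes of low genes, 2-fold risers and fallers numbered 2086 and 1618 in morphants. On log2(TPM + 0.1) they numbered 4546 and 2554.

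**Figure D1:**
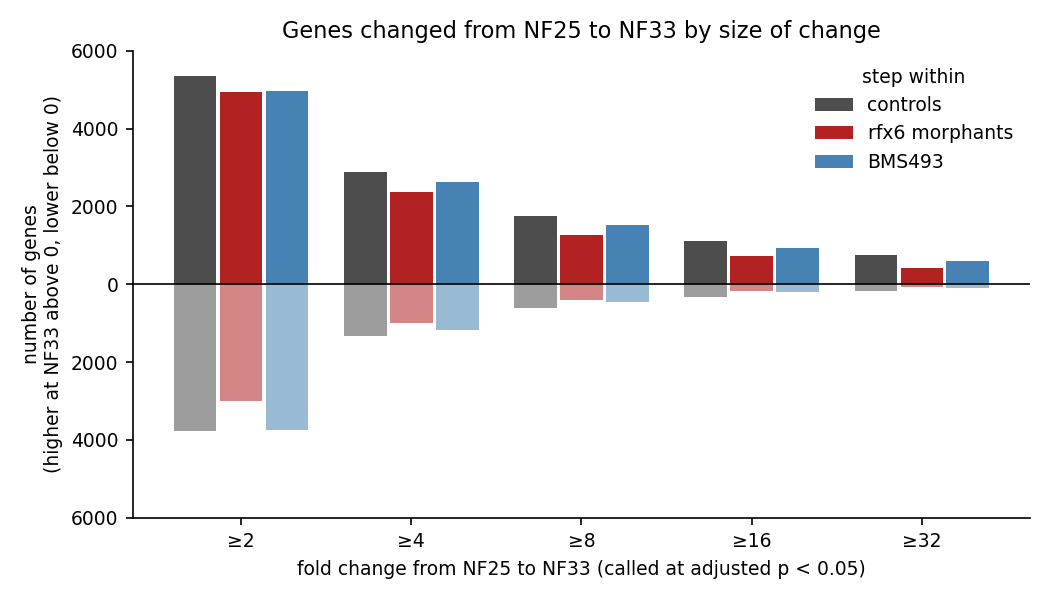
Number of genes called at adjusted p under 0.05 that changed at least 2-, 4-, 8-, 16- or 32-fold from NF25 to NF33, higher at NF33 above 0 and lower at NF33 below 0, within controls, rfx6 morphants and BMS493 explants. Morphants have fewer genes than controls in every class, 413 risers against 749 at 32-fold or more.

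Among genes with 0 counts in every NF25 morphant library, XBXL10_1g41015 reached the highest level at NF33. It had 0 counts in all 3 morphant libraries of NF25 and stood at 75.7, 81.7 and 81.7 CPM in those of NF33. That is at least 1852-fold higher, set against 3 counts over the NF25 group. In controls it also went from 0 counts in every library to 258 ± 5.79 CPM (SD, n = 3), and BMS493 explants went from 1.55 ± 0.209 to 340 ± 20.3 CPM. At NF38 the order was the other way, with 629 ± 28.0 CPM in morphants and 304 ± 6.38 CPM in controls (edgeR log2 difference 1.05, SE 0.04, adjusted p = 1.24e-32).

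XBXL10_1g37344 had the largest fitted rise among genes with a mean of at least 1 CPM at both stages. It stood at 1.79, 1.91 and 1.29 CPM in the NF25 morphant libraries and at 409, 406 and 428 CPM at NF33. The groups are far apart, with a ratio of 249 (edgeR log2 fold change 7.97, SE 0.08, adjusted p = 7.70e-71). The control rise was larger, from 1.32 ± 0.107 to 1254 ± 12.0 CPM, and the difference of the steps was -1.92 (SE 0.19, adjusted p = 2.04e-13). By NF38 morphants reached 3711 ± 141 CPM and controls 4813 ± 76.9 CPM.

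XBXL10_1g31917 went from 45.5, 49.1 and 42.5 CPM to 0 counts in all 3 morphant libraries of NF33, at least 1253-fold lower set against 3 counts over the group. In controls it started at 14.6 ± 1.41 CPM and fell to 0.184 ± 0.0715 CPM. At NF38 the gene was detected again in morphants, at 7.75, 7.63 and 6.61 CPM. BMS493 explants kept 8.58 ± 0.844 CPM at NF33.

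XBXL10_1g17803 had the largest fitted fall among genes with a mean of at least 1 CPM at both stages. It went from 311, 305 and 292 CPM to 2.80, 2.85 and 3.01 CPM in morphants (edgeR log2 fold change -6.71, SE 0.07, adjusted p = 1.05e-68). In controls it fell further, from 420 ± 10.9 to 0.708 ± 0.387 CPM. The difference of the steps was 2.49 (SE 0.18, adjusted p = 1.55e-18).

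**Figure D2:**
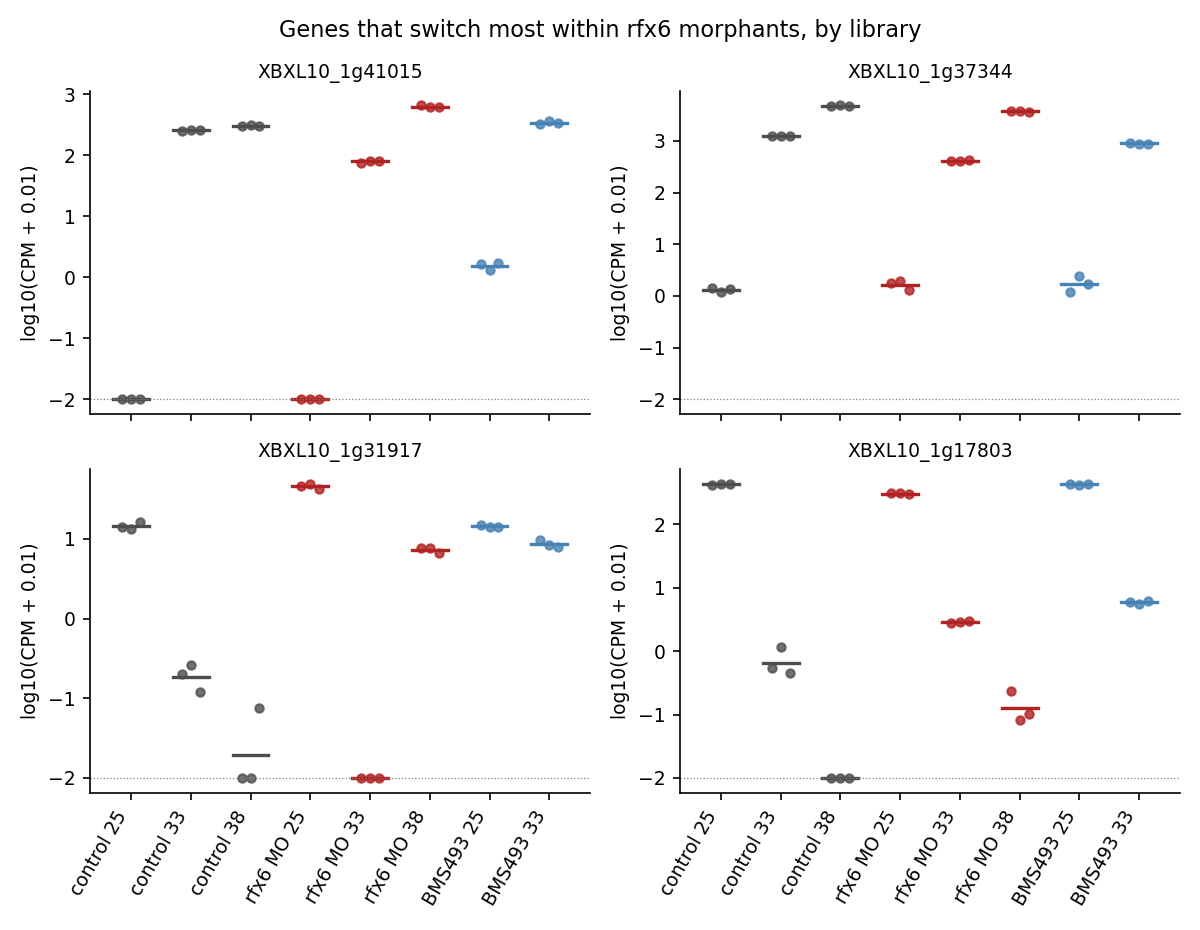
Level of the 4 genes in each of the 24 libraries as log10(CPM + 0.01), by treatment and stage, with 1 point per library and a line at the mean of the 3 plotted values. Points on the dotted line at -2 are libraries with 0 counts. The 2 upper genes rise and the 2 lower genes fall from NF25 to NF33 in both morphants and controls.

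Genes that rose in morphants had mostly been low before. The 4940 risers had a median of 0.560 CPM at NF25 and 2.65 CPM at NF33, and 2980 of them (60.3%) averaged under 1 CPM at NF25. Fallers came from a higher level, with a median of 8.89 CPM at NF25 and 2.46 CPM at NF33. Among them 305 stood at 100 CPM or more at NF25 and 87 at NF33. The median of all tested genes was 6.71 CPM at NF25 and 7.16 CPM at NF33. The values of the 2 groups of 3 libraries overlapped for 167 risers (3.38%) and 85 fallers (2.83%). These genes were called from the same libraries, so little overlap follows from the call. Genes near 0 at one stage passed the count filter through a stage or group in which they were higher. With no filter on low counts there were 5169 risers and 3231 fallers. How the filter alters the share of low genes among the risers was not tested.

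Summed over the genes, the 4940 risers took 21328, 21315 and 21239 CPM in the NF25 morphant libraries and 81059, 81768 and 82207 CPM at NF33. In controls the same genes went further, from 23416 ± 58.0 to 113744 ± 668 CPM. At NF38 they stood at 180222 ± 5558 CPM in morphants and 177475 ± 861 CPM in controls. These genes were chosen by their rise in morphants, so the morphant sums are a description. Because of the scaling factor per library, summed CPM are not shares of a common total. In bulk tissue, fewer cells of a type and less RNA per cell cannot be told apart.

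The 2999 fallers took 194920, 280926 and 223301 CPM at NF25 and 76455, 73304 and 72048 CPM at NF33. Replicate 2 of NF25 stood above the other two. Much of that spread lay in 9 abundant genes that differed at least 2-fold among the 3 NF25 libraries, all of which were highest in replicate 2 and 6 of which had the same counts as another gene. They took 31559, 116963 and 59265 CPM in replicates 1, 2 and 3. The same genes also varied at NF25 in BMS493 explants (41578, 46226 and 102876 CPM) and in controls (58550, 34558 and 63876 CPM). In NF33 morphants these genes took 26229, 23470 and 22072 CPM. Without them the fallers went from 163786 ± 371 to 50012 ± 198 CPM in morphants and from 127082 ± 701 to 36303 ± 237 CPM in controls. At both stages the morphant sum without those genes was above that of the controls, with no overlap of libraries. The fallers were chosen by their fall in morphants, which favours high morphant values at NF25. These sums are therefore a description and do not test a difference between the treatments.

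The step involved both rare and abundant transcripts. In the lowest quartile of tested genes by mean level over all 24 libraries, 26.1% rose and 15% fell at least 2-fold in morphants. In the highest quartile, 7.45% rose and 8.22% fell. The corresponding control values were 28.7% and 16.2% in the lowest quartile, and 9.42% and 11.2% in the highest. Genes of the lowest quartile averaged 0.063 to 1.61 CPM. The lowest of them passed the count filter through a group in which they were higher, which can add to its shares. How much it adds was not tested. Among the 100 most abundant genes of NF25 morphants, 31 fell at least 2-fold, 1 rose and 72 were still among the 100 most abundant at NF33. Over all tested genes 10.6% fell and 17.4% rose at least 2-fold. These 100 genes were chosen by their level in the NF25 libraries of the step itself, which favours falls. The 10 largest gains held 10.8% of the summed gain in CPM, and the 100 largest held 32.9%. For losses the shares were 19.5% and 43.1%, but 7 of the 10 largest losses were among the 9 genes that stood highest in NF25 replicate 2. Without those 9 genes the shares of the loss were 11.3% and 33.8%. With the top 100 genes chosen anew in each library, they took 29.1 ± 2.61% of counts at NF25 and 25.7 ± 0.200% at NF33 in morphants. In controls they took 27.3 ± 1.12% and 24.8 ± 0.364%.

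Few genes went all the way from silent to expressed. Off was set as under 0.1 CPM in each of 3 libraries and on as 1 CPM or more in each of 3, over all 44478 genes. By that measure 111 genes were switched on and 16 switched off in morphants. The counts depend on the limits, with 58 to 203 on-switches and 7 to 37 off-switches over the other limits tried. There were 25 off-switches without NF33 replicate 2, and 25 without NF33 replicate 3. Controls had 230 and 42, and BMS493 explants 179 and 16. The 111 morphant genes stood at 1.11 to 301 CPM at NF33, with a median of 2.49 CPM. At NF38, 103 of them were on and none was off. The 16 genes switched off came from 1.28 to 269 CPM, with a median of 2.42 CPM.

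The on-switches of morphants and controls shared 51 genes, 45.9% of the morphant list and 22.2% of the control list. These 51 genes reached a median of 2.92 CPM in morphants and 11.4 CPM in controls at NF33. The control mean was higher for 48 of them, and the edgeR comparison at NF33 called 46 lower in morphants. Of all tested genes, 24.3% were called lower and 25.5% higher in morphants at NF33. Control on-switches missed the morphant list in different ways. Of the 230, 92 were off at NF25 in morphants and lay between the 2 limits at NF33. Another 44 were on at NF33 in morphants but lay between the limits at NF25. A further 30 lay between them at both stages, and 10 were off at both. Among the 179 control on-switches that morphants did not share, 169 were on in morphants at NF38. The median of these 179 in morphants was 0.623 CPM at NF33 and 5.44 CPM at NF38, beside 2.44 and 6.19 CPM in controls. The 179 include the 44 that were already on in morphants at NF33. They were chosen as on in NF33 controls and not switched on in morphants, which favours a lower morphant median at NF33.

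Off-switches were shared by 4 genes. Of the 42 control off-switches, 30 were on at NF25 in morphants and lay between the limits at NF33. Their group of 42 started higher in morphants, with a median of 4.38 CPM at NF25 against 2.36 CPM in controls. At NF33 the medians were 0.170 and 0.0365 CPM. The 42 were chosen as off in every NF33 control library, with no such limit in morphants. That choice favours a higher morphant median at NF33, so these medians are a description.

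Most genes of the normal step still moved the same way in morphants. Of the 5359 genes that rose at least 2-fold in controls, 3568 (66.6%) rose at least 2-fold in morphants, which is 72.2% of the morphant risers. A further 698 (13%) rose by less than 2-fold, 982 (18.3%) were not called and 111 (2.07%) fell. Of the 3772 control fallers, 2191 (58.1%) fell at least 2-fold in morphants, 73.1% of the morphant fallers. Another 951 (25.2%) fell by less, 536 (14.2%) were not called and 94 (2.49%) rose. The steps of morphants and controls share no library. Across the 28313 genes, which are not independent replicates, they correlated with r = 0.790 (rho = 0.781).

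**Figure D3:**
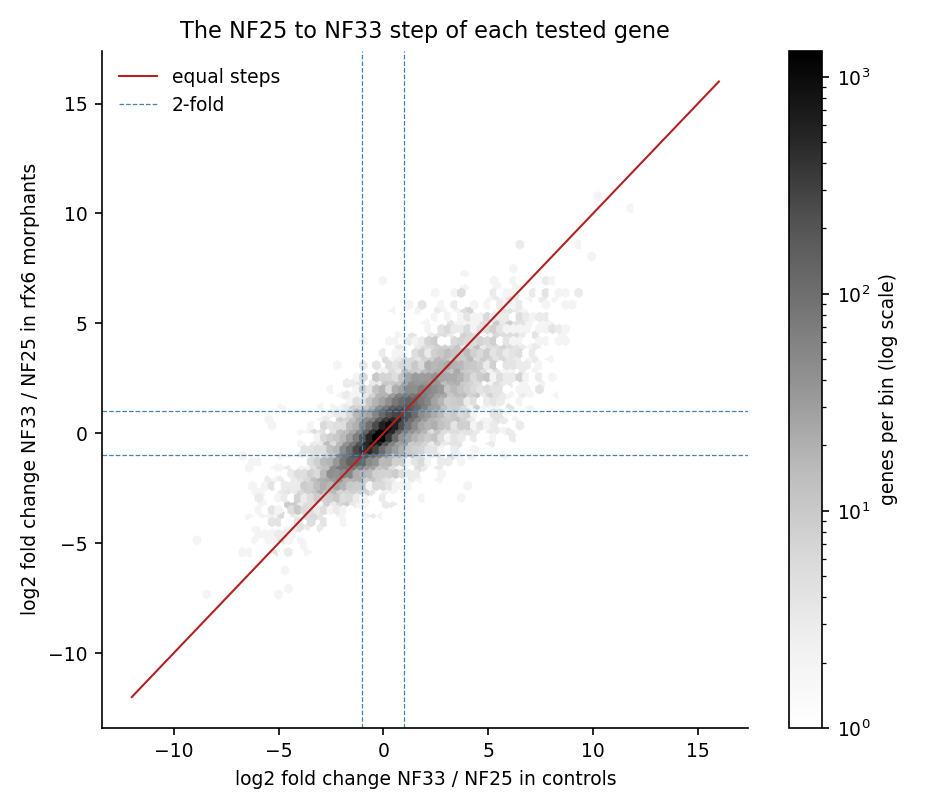
Fitted log2 fold change from NF25 to NF33 of each tested gene within the plotted range, in controls (horizontal) and rfx6 morphants (vertical). Grey gives the number of genes per bin on a log scale. The red line marks equal steps and the dashed lines 2-fold. The cloud follows the red line, with r = 0.790 over all tested genes. Control risers had a median of 2.14 in controls and 1.61 in morphants, a choice of genes that favours the control step.

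For genes chosen in controls or in BMS493 explants, the steps themselves were smaller in morphants. Control risers had a median log2 fold change of 2.14 in controls and 1.61 in morphants, and control fallers -1.65 and -1.18. Genes chosen in controls favour the control step, so the size was read from the 4978 rising and 3746 falling genes of BMS493 explants. Those explants share no library with either step. They received no rfx6 morpholino, so this choice may also favour the control step. Of their risers 76.7% rose at least 2-fold in controls and 66.8% in morphants, and of their fallers 72.1% and 54.3% fell. Over the rising genes the median step was 2.02 in controls and 1.69 in morphants. Over the falling genes it was -1.43 and -1.11.

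Per library, the mean log2 CPM of those rising genes less that of the falling genes was -3.82, -3.80 and -3.83 in morphants at NF25. It was -0.95, -0.92 and -0.92 at NF33. The controls stood at -3.68, -3.70 and -3.70 at NF25 and at -0.05, -0.01 and -0.03 at NF33. The morphant libraries lay slightly below those of controls at NF25 and well below them at NF33, without overlap at either stage. The step was 2.89 (SE 0.02) in morphants and 3.67 (SE 0.01) in controls, so over these genes morphants covered 78.7% of the control step. For rising genes taken by themselves it was 78%, and for falling genes 79.7%. The value depends on where the genes are chosen: it was 70.5% with genes chosen in controls and 106% with genes chosen in morphants.

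**Figure D4:**
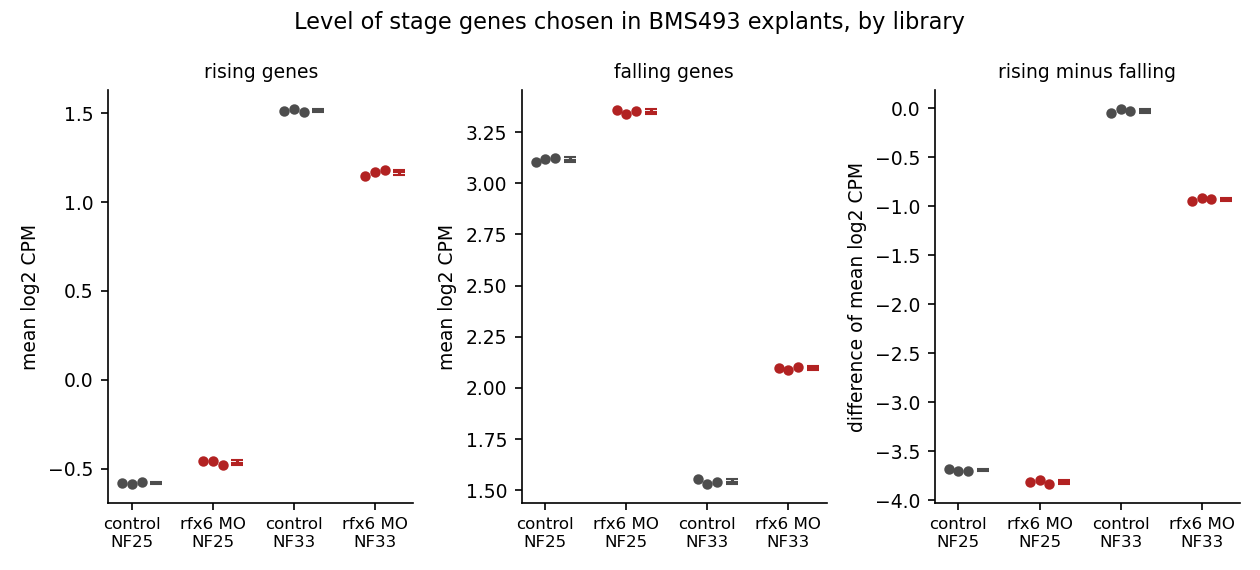
Mean log2 CPM per library of the 4978 rising genes, of the 3746 falling genes, and the difference of both means, for controls and rfx6 morphants at NF25 and NF33. Genes were chosen in BMS493 explants. Points are libraries and bars the mean ± SD of 3. Rising genes reach a lower level and falling genes keep a higher level in NF33 morphants than in NF33 controls.

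The difference of the steps was tested gene by gene. The edgeR contrast called 9541 genes, 5274 (18.6%) with a step higher in morphants and 4267 (15.1%) with a step lower in morphants. At 2-fold or more these were 1321 (4.67%) and 1318 (4.66%) genes. Which direction held more calls depended on scaling. With libraries scaled to their totals it was 7497 higher and 2780 lower, with a median difference over all genes of 0.17 against 0.04 in the fit used here, and with DESeq2's size factors 4312 higher and 5039 lower. Relative to the direction of normal development the calls were uneven. Among control risers 1593 (29.7%) had a smaller or opposite step in morphants and 286 (5.34%) a larger one. Among control fallers the counts were 1735 (46%) and 151 (4%). Genes chosen by their movement in controls favour this direction. Among risers chosen in BMS493 explants 23.9% had a smaller step in morphants and 9.24% a larger one, and among fallers chosen there 39.3% and 6.57%. Those explants, like controls, received no rfx6 morpholino, so that choice may favour the same direction.

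Missing this call does not mean an equal course. Of the 3480 control risers without a called difference, 1466 (42.1%) were still called lower in morphants at NF33 and 263 (7.56%) higher. Over all tested genes these shares were 24.3% and 25.5%. The test had little to work with where a gene began near 0. There were 966 control risers under 0.1 CPM at NF25 in both treatments, of which 82 were called for the difference of the steps. At NF33, 509 of the 966 were called lower in morphants and 46 higher. Of these 966, 668 rose at least 2-fold in morphants. Both sets were chosen by their rise in controls, which favours lower morphant values at NF33. The 966 also passed the count filter through a group in which they were higher. These counts are therefore a description.

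Where the gap arose was read from the comparisons at each stage, which share their libraries with the difference of the steps and are linked to it by arithmetic. At NF25, 18% of all tested genes were called higher and 16.6% lower in morphants. The 1593 genes with a smaller rise went up by a median of 2.21 in controls, 0.83 in morphants and 1.62 in BMS493 explants on the log2 scale. They began higher in morphants, with a median difference of 0.49 at NF25, and 655 (41.1%) were called higher. They ended lower, with a median difference of -0.71 at NF33, and 1229 (77.2%) were called lower. Both held for 332 genes, while 789 differed at NF33 and were not called at NF25. Within morphants 1297 of the 1593 rose further from NF33 to NF38, and the median change over that interval was 1.04. Of all tested genes, 32% rose and 27.6% fell in morphants over that interval. At NF38, where 21.7% of all tested genes were called lower and 25.4% higher in morphants, 625 of the 1593 were called lower, 349 higher and 619 were not called. The median difference from controls was then -0.13.

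Incomplete falls kept more of their gap at NF38. The 1735 genes with a smaller fall had a median change of -1.67 in controls, -0.84 in morphants and -1.44 in BMS493 explants. At NF25, 621 of them (35.8%) were called higher and 353 (20.3%) lower in morphants. Their median difference between morphants and controls was then 0.08. Over all tested genes 18% were called higher and 16.6% lower at NF25. At NF33 the median difference was 0.88, and 1579 (91%) were called higher in morphants, beside 25.5% of all tested genes. The genes were chosen for a smaller fall, so the gap at NF33 largely follows from the choice. Within morphants 1124 (64.8%) fell further by NF38, beside 27.6% of all tested genes, with a median change of -0.55 over all 1735. At NF38 the median difference from controls was 0.68, and 1097 (63.2%) were called higher, beside 25.4% of all tested genes.

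A smaller number of genes moved at least 2-fold in morphants, did not do so in the same direction in controls, and were called for the difference. There were 653 such risers, 13.2% of all morphant risers, with a median step of 1.48 in morphants and 0.34 in controls. In controls 290 of them rose by less than 2-fold, 288 were not called and 75 fell. In BMS493 explants 185 of them rose at least 2-fold. At NF25 367 were called lower in morphants than in controls and at NF33 386 were called higher, while both held for 133 (20.4%). Over all tested genes 16.6% were called lower at NF25 and 25.5% higher at NF33. The 392 such fallers, 13.1% of all morphant fallers, had a median step of -1.39 in morphants and -0.30 in controls. In controls 168 of them fell by less than 2-fold, 141 were not called and 83 rose. In BMS493 explants 81 of them fell at least 2-fold. At NF25 291 were called higher in morphants, and the median difference from controls was 0.76. At NF33 173 were called lower, with a median difference of -0.30, and both held for 89. Over all tested genes 18% were called higher at NF25 and 24.3% lower at NF33. A difference of the steps requires a gap between the treatments at NF25, NF33 or both. The counts at each stage therefore largely follow from the choice of genes. How many genes were chosen depends on scaling: with libraries scaled to their totals there were 1060 such risers and 241 such fallers.

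Opposite courses of at least 2-fold were found for 112 genes. Of these, 65 rose in controls and fell in morphants. Their median level in morphants went from 2.82 to 0.929 CPM, and in controls from 0.316 to 1.43 CPM. At NF25, 58 of the 65 were called higher in morphants, beside 18% of all tested genes. The other 47 fell in controls, from a median of 1.27 to 0.333 CPM, and rose in morphants, from 0.890 to 2.86 CPM. At NF33, 46 of the 47 were called higher in morphants, beside 25.5% of all tested genes. Opposite steps require a gap between the treatments at one stage or both, so these counts largely follow from the choice of genes.

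Among called genes of at least 1 CPM in all 4 groups, those with the largest differences of the steps were followed by library. XBXL10_1g40760 stood at 11.2, 8.15 and 11.5 CPM in NF25 morphants and at 1.33, 1.01 and 1.50 CPM in NF33 morphants. In controls it rose from 2.06 ± 0.215 to 7.54 ± 0.304 CPM. The difference of the steps was -4.88 (SE 0.21, edgeR adjusted p = 1.88e-31). Morphants were thus above controls at NF25 and below them at NF33, with no overlap. By NF38 morphants had 13.8 ± 0.170 CPM and controls 19.9 ± 1.12 CPM.

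XBXL10_1g21083 stood at 26.3, 30.5 and 33.7 CPM in NF25 morphants and at 2.16, 2.20 and 2.56 CPM in NF33 morphants. Controls had 1.45 ± 0.191 and 3.20 ± 0.535 CPM. The difference was -4.84 (SE 0.22, edgeR adjusted p = 9.28e-31). The larger gap was at NF25, where the log2 difference between morphants and controls was 4.37 (SE 0.14), against -0.47 (SE 0.16) at NF33.

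In the other direction, XBXL10_1g27566 rose in morphants from 8.06, 8.15 and 8.78 CPM to 21.7, 22.3 and 21.3 CPM. In controls it fell from 30.1 ± 1.78 to 1.90 ± 0.239 CPM, so the order of the treatments turned between the stages. The difference was 5.37 (SE 0.14, edgeR adjusted p = 1.72e-44). BMS493 explants fell from 51.9 ± 3.17 to 12.2 ± 0.543 CPM.

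XBXL10_1g571 rose in morphants from 7.06, 8.80 and 7.45 CPM to 12.8, 13.5 and 12.9 CPM and fell in controls from 22.5 ± 0.901 to 1.34 ± 0.278 CPM. The difference was 4.81 (SE 0.18, edgeR adjusted p = 6.97e-35). BMS493 explants fell from 18.7 ± 2.72 to 1.77 ± 0.256 CPM. At NF38 morphants had 4.44 ± 0.785 CPM and controls 1.25 ± 0.163 CPM.

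**Figure D5:**
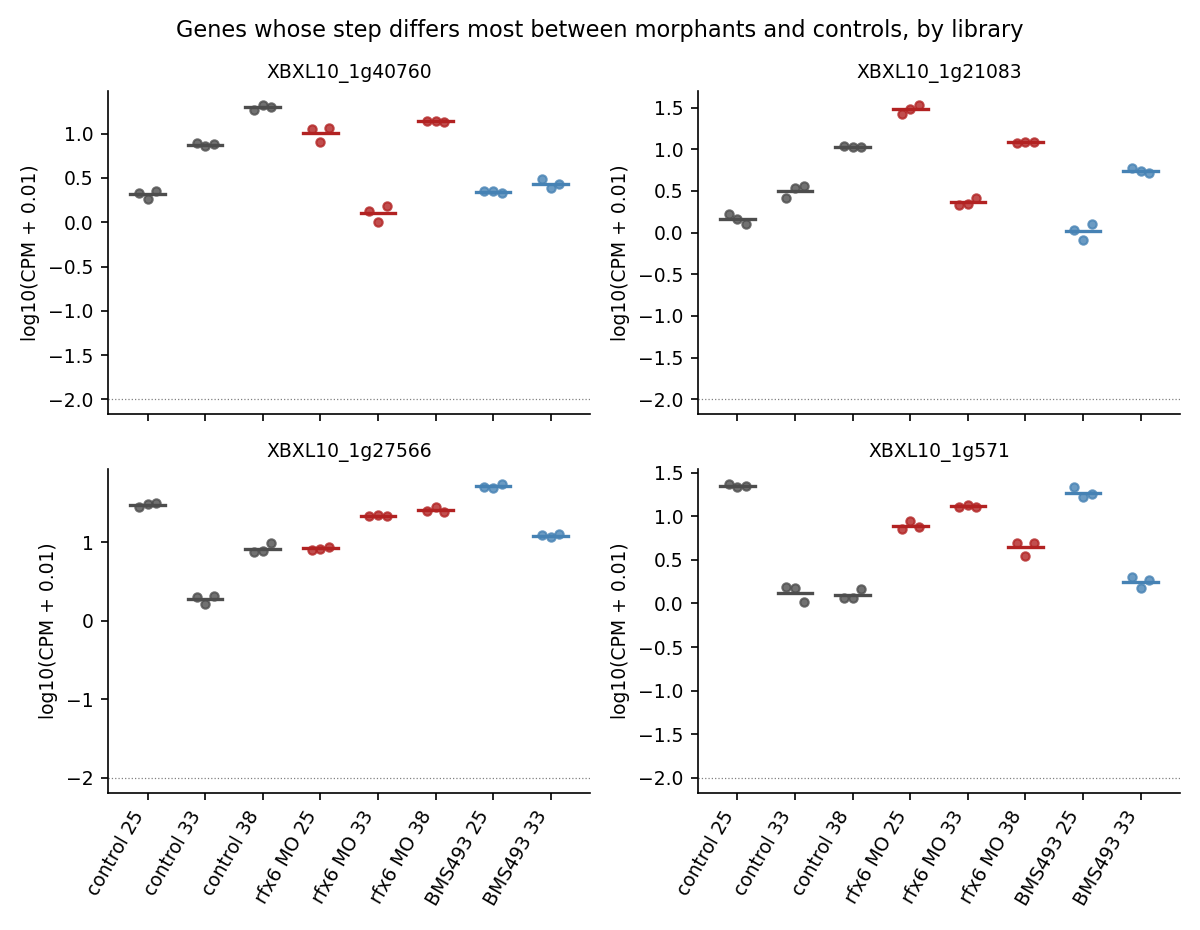
Level of these 4 genes in each of the 24 libraries as log10(CPM + 0.01), by treatment and stage, with 1 point per library and a line at the mean of the 3 plotted values. In each panel controls and rfx6 morphants move in opposite directions from NF25 to NF33.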

How the data were processed

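Per the submitters' processing notes, RSEM 1.3.0 and Bowtie2 were used. For the genome build, the annotation and the strand setting of the counting, the labels' protocols and file headers give no value. The authors deposited a table of estimated counts per gene, stored as whole numbers, and a table of TPM (counts relative to transcript length and to the sum over the library). No column was without a sample, and a row for reads without a gene held no counts and was left out.

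Counts were analysed with edgeR 4.0.16 in R 4.3.3: filterByExpr over the 8 groups (minimum count 10, minimum total 15), TMM scaling, a robust quasi-likelihood fit of 1 mean per group over all 24 libraries, and Benjamini-Hochberg adjustment over all 28313 genes tested. Genes were called at an adjusted p under 0.05. SE is the absolute log2 fold change divided by the square root of F. CPM are on the TMM scale, log2 CPM use a prior count of 2, and bounds against 0 use 3 counts over a group. Scripts were tested on simulated data. Alternatives used DESeq2 1.42.0 on the counts and limma 3.58.1 on the deposited TPM.

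Identifiers were looked up in a RefSeq gene table (Xenopus_laevis_v10.1, 44456 genes) and none matched exactly. The genes named are, for the step, the one with 0 counts in every library of one stage and the highest mean at the other, and the one with the largest fitted change among called genes with 1 CPM or more at both stages, in each direction. For the difference of the steps they are the 2 most extreme in each direction among called genes with 1 CPM or more in all 4 groups. The comparison, the rules and the lists were chosen with earlier results of these data known.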

Additional observations from a re-analysis of the deposited data

Results flagged for a closer look

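The change from NF25 to NF33 differed between rfx6 morphants and controls for 9541 genes by the edgeR contrast of the steps. The 4 named genes of that contrast were XBXL10_1g40760 (log2 difference, morphants minus controls, -4.88), XBXL10_1g21083 (-4.84), XBXL10_1g27566 (5.37) and XBXL10_1g571 (4.81). They were chosen as the most extreme of the called genes, and their sizes carry that choice.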

How the results depend on the processing

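The number of genes called for the morphant step ran from 17498 to 19640 over 18 alternatives, and that for the difference of the steps from 8756 to 10302 over 24. Every one of the 112 alternative values for single named genes kept its direction and its call. Those genes were chosen as extreme in these data, so this says little about other called genes. Control risers with a smaller rise ran from 1129 to 1797 and control fallers with a smaller fall from 1501 to 2093. Control risers that rose at least 2-fold in morphants were 65.0% with DESeq2 size factors, 73.2% with total library size, 63.8% with no filter, 69.5% with a filter at 1 CPM, 65.1% with DESeq2, 60.1% with limma on log2(TPM + 1), 68.3% on log2(TPM + 0.1), 69.5% with only the groups compared, and 63.9% to 66.8% with 1 library left out. For control fallers the share was 61.0% with DESeq2 size factors, 50.1% with total library size, 60.7% with DESeq2, 48.2% on log2(TPM + 1) and 48.3% on log2(TPM + 0.1). Genes with a step lower in morphants were 2780 with total library size and 2548 on log2(TPM + 0.1). The higher and lower split was 7442 and 2860 on log2(TPM + 1), 7382 and 2548 on log2(TPM + 0.1), and 4196 and 5011 with DESeq2. The median difference of the steps over all genes was 0.13 and 0.20 on the TPM scales. Larger rises numbered 436 and larger falls 92 with total library size, and larger rises 169 on log2(TPM + 1). Genes moving at least 2-fold in morphants and not that way in controls were 1060 up and 241 down with total library size, 217 down on log2(TPM + 1), and 164 up and 95 down at 4-fold. The 2-fold counts of the morphant step were 2086 up and 1618 down on log2(TPM + 1), a scale that shrinks changes of low genes, and 2379 and 1004 at 4-fold. The step size was 77.0% on log2(TPM + 1), 70.5% with genes chosen in controls and 106% with genes chosen in morphants. On-switches numbered 203 with on at 0.5 CPM and 58 with on at 2 CPM, and off-switches 37 and 8. With off under 0.05 CPM there were 7 off-switches. With 1 library left out there were 18 to 25, and 25 without rfx6 NF33 replicate 2 or without replicate 3, where fewer libraries have to meet the limits. Where no cause is given, the cause was not tested. Leaving out genes with equal counts, or the abundant genes that varied among NF25 morphants, was chosen after seeing the data. Without the equal genes 19352 genes were called for the morphant step, and 4819 were higher and 4622 lower for the difference of the steps. Without the abundant genes it was 19378, and 5095 and 4390. Same-numbered morphant libraries of the 2 stages did not deviate together (r from -0.0145 to 0.0259). A pairing that left no shared deviation would be missed, so this does not exclude that the numbers pair samples. With the replicate number as a block 19318 genes were called for the morphant step and 9460 for the difference of the steps.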

Other observations

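The ratio of count to TPM of a gene, relative to its library, follows the length of transcript the authors' estimate assigned to it. For 13850 genes with at least 100 counts in each of the 12 morphant and control libraries of NF25 and NF33, this ratio varied little among replicates, with a median SD of 0.0046 to 0.0078 on the log2 scale. From NF25 to NF33 in morphants its change ran from -0.11 to 0.14 between the 5th and 95th percentiles of genes. It was at least 0.5 with no overlap of libraries for 90 genes, 38 longer and 52 shorter. In controls 73 genes met the same limits, 48 longer and 25 shorter. Across genes the changes in morphants and controls correlated with r = 0.082, as a description.

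Genes whose identifier numbers differ by 1 had more similar morphant steps than genes further apart in number. Across 21613 such pairs r was 0.189, and it was 0.030 across 19858 pairs 10 apart and 0.0026 across 18711 pairs 100 apart. Of the risers with a tested partner, 24% had a riser as partner at a distance of 1 and 16.6% at a distance of 100. What the numbering follows is stated in none of the labels or headers.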
